A study of Homo sapiens with 4 samples.

Results

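The MCM genes encode the minichromosome maintenance proteins, and 8 of them (MCM2, MCM3, MCM4, MCM5, MCM6, MCM7, MCM8 and MCM10) were followed across 4 cultures of Nalm-6, an established human line of pre-B leukemia. They were picked by name, as every probe whose transcript identifier maps to one of these genes, and their values in the same arrays were known when the family was picked. All values of the family are therefore given as a description. The 8 genes had 10 of the 41000 probes on the array, and all 8 were among the 12568 genes with a detected probe.

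Each culture was 1 array and carried its own genotype. Wild-type cells (WT) were compared with cells whose Arp5 gene had been disrupted (Arp5 KO), with cells whose Arp8 gene had been disrupted (Arp8 KO) and with a culture whose label gives overexpression of Arp8 (Arp8 OE). Both proteins are actin-related subunits of the INO80 complex, which slides and exchanges nucleosomes with the energy of ATP. The titles, the protocol (20 uM heme for 12 h) and the series design gave heme treatment for all 4 cultures. The treatment field gave both knockouts as not treated with heme, and the source field gave heme for Arp8 KO but not for Arp5 KO, so genotype and heme cannot be told apart in any comparison with a knockout. Both knockouts are lines made by gene targeting, and differences between lines that do not come from the targeted gene cannot be told apart from it either.

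MCM2 to MCM7 form a ring of 6 different subunits that is loaded around DNA at replication origins in G1 phase. In S phase the ring joins CDC45 and the GINS proteins to become the replicative helicase, which unwinds the parental strands. MCM8 is a relative of the ring subunits that works with MCM9 in homologous recombination, and MCM10 is an unrelated protein, named in the same genetic screens, that helps to switch the loaded helicase on. Transcription of the ring subunits is a classical target of E2F factors, which are held in check by RB proteins until late G1, and cycling leukemia cells carry abundant MCM transcripts.

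The reference promoters of these genes are shown first, because E2F is the best-known shared regulator of the family. Windows of 300 bases (250 before the start of the gene and 50 after it) from RefSeq, build GRCh38.p14, were used for 6 of the 8 genes. No window was used for MCM4 and MCM5, which were each low in 1 knockout (below). The windows were searched on both strands for 2 E2F forms, TTTCGCGC and TTTGGCGC. At least 1 of these was present in 403 of the 35116 such windows of the RefSeq table used here (1.15%). A gene can have several windows. Counted by gene, 261 of the 10113 tested genes with any window had a form in one, as did 5 of the 6 MCM genes. Each 30-base stretch is written 5′ to 3′ on the strand of the gene, with the matched letters in capitals. Capitals of 12 letters mark 2 matches on opposite strands that overlap.
MCM2, chr3:127598404-127598433, plus strand: tgaaccactTTTCGCGCGAAAcctggttgt
MCM3, chr6:52284728-52284757, minus strand: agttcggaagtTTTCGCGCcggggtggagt
MCM6, chr2:135876575-135876604, minus strand: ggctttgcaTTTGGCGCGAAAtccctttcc
MCM6, chr2:135876513-135876542, minus strand: ttggtcaggTTTGGCGCGAAAtctccagct
MCM7, chr7:100101388-100101417, minus strand: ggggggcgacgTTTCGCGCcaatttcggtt
MCM8, chr20:5950667-5950696, plus strand: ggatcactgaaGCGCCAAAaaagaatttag

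The MCM2 match ran from position 3 to 14 after the start of the gene, where position 1 is its first base. It holds the first form on both strands. The MCM6 window held the first and the second form overlapping on opposite strands at 2 places, from -152 to -141 and from -90 to -79. In MCM3 and MCM7 the match lay across or just before the start, at -4 to 4 and at -9 to -2. The MCM10 window held neither form. A match of letters describes the reference sequence only, since binding was not measured.

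Levels below are listed in the order WT, Arp5 KO, Arp8 KO, Arp8 OE, and differences from WT in the order Arp5 KO, Arp8 KO, Arp8 OE, unless the culture is named beside the value. Signals were compared as log2 of the background-subtracted intensity over the array's own 75th percentile, which lay between 647.4 and 739.6 intensity units. With 1 array per culture there was no biological replicate and no test. As a measure of technical error, the scanner software gave each MCM spot an error of 10%, or 0.14 on the log2 scale, and 0.2 for a difference between 2 arrays. The 105 probes that were printed 10 times and lay above the 75th percentile on all arrays spread less, with a median SD of the log2 difference from WT between 0.036 and 0.043. Neither number covers the spread between cultures. All 10 MCM probes were well above background on all 4 arrays, none was saturated or marked as an outlier, and all 4 arrays lay on 1 slide with 1 scan time.

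The genes named by the genotype labels were looked at first. ACTR5, which encodes Arp5, was at -4.27 from WT in Arp5 KO. ACTR8, which encodes Arp8, was at -0.6 in Arp8 KO and at 0.0 in the culture labelled Arp8 OE, where it was not raised, so that label is used as a name and no direction is read from it. In Arp8 KO the 2 ACTR8 probes were at -0.68 and -0.53, far less low than ACTR5 in Arp5 KO. The transcript values alone therefore do not show the disruption of the Arp8 gene. The cells carried B-precursor transcripts on every array (10 of 10 markers), though not at an even level, since VPREB1 was at -0.42, -1.26 and 0.0 from WT in the order above, DNTT at 0.84, 1.78 and 1.02, and RAG1 at 0.37, 0.88 and 1.03. Of 8 markers of T cells, myeloid cells and erythroid cells, CD14 was well above background on all 4 arrays, at scaled log2 levels between -3.56 and -3.32, and each of the others was so on at most 1 array.

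MCM2 was the member that set both knockouts apart. Its single probe (A_32_P103633) had a signal of 16555 in WT and 15562 in Arp8 OE, against 5395 in Arp5 KO and 5264 for Arp8 KO. The scaled log2 levels were 4.49, 2.87, 3.0 and 4.59. Both knockouts were low and both other cultures were high, and each of these pairs lay closer together than the error of 0.2. From WT, MCM2 differed by -1.63 in Arp5 KO (3.09-fold lower, leaving 32.4% of the WT level) and by -1.49 in Arp8 KO (2.81-fold lower, leaving 35.6%). Arp8 OE differed from WT by 0.09. Set against Arp8 OE in place of WT, MCM2 was at -1.72 and -1.58, so the low level did not rest on the WT array. Fewer cells in a phase that expresses a gene and less RNA per cell cannot be told apart in such bulk samples.

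**Figure D1:**
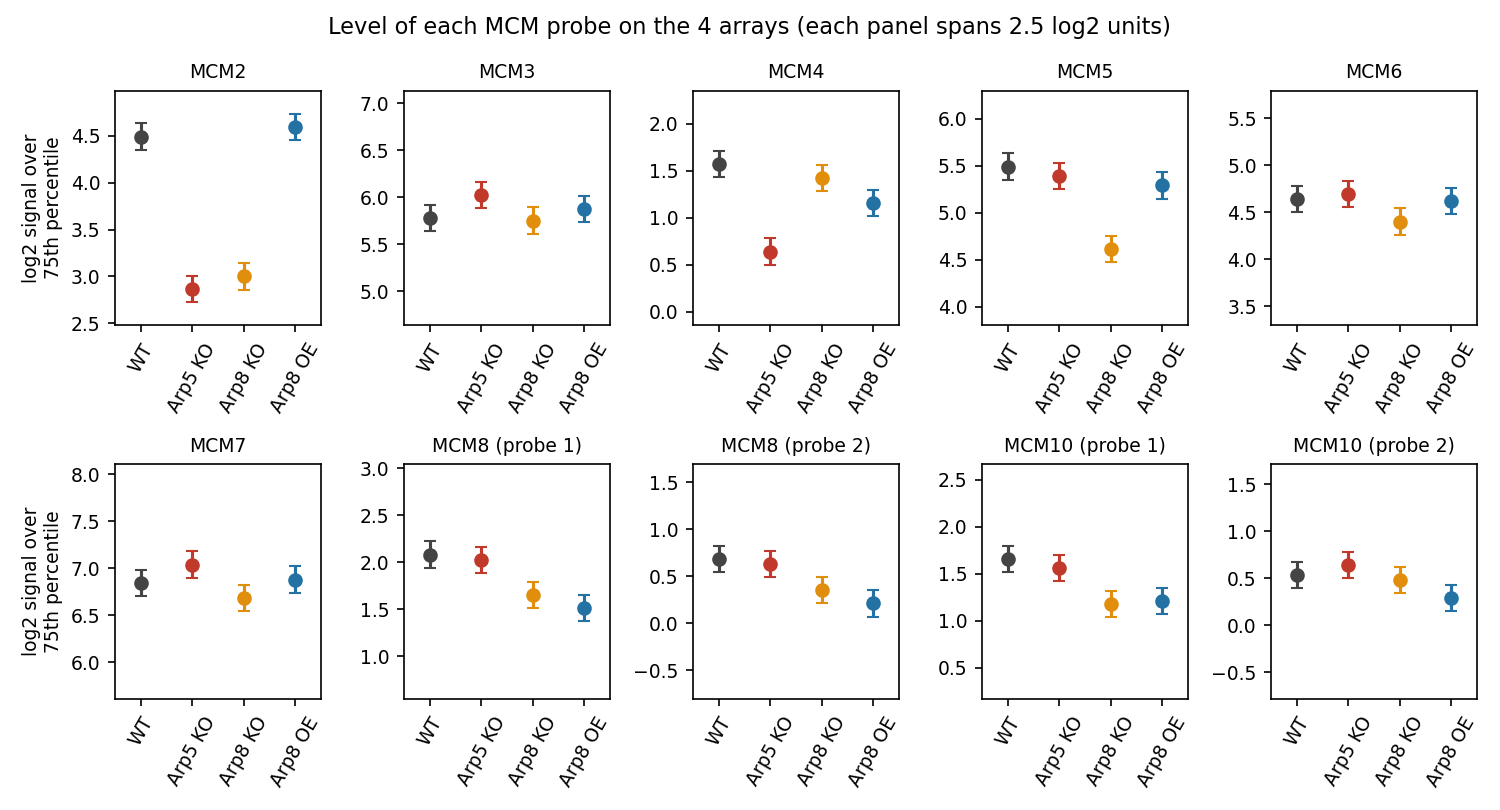
Scaled log2 level of each of the 10 MCM probes on the 4 arrays, with 1 panel per probe, 1 point per array and bars of 0.14 for the error the scanner software gives a spot. MCM2 splits into a high pair, WT and Arp8 OE (4.49 and 4.59), and a low pair, the knockouts (2.87 and 3.0), while MCM4 is lowest in Arp5 KO (0.64) and MCM5 in Arp8 KO (4.61).

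The low level of MCM2 in both knockouts was shared by none of the other 5 ring subunits. MCM3 was at 5.78, 6.02, 5.75 and 5.87, with Arp5 KO above WT by 0.24 and the other three within the error of each other. MCM6 was at 4.64, 4.69, 4.4 and 4.62, where Arp8 KO was lowest, at -0.24 from WT. MCM7 was at 6.84, 7.04, 6.68 and 6.88, a span of 1.28-fold in which neighbours in the order lay within the error. Over the 4 cultures the scaled signal of these 3 subunits spanned 1.21-fold (MCM3), 1.22-fold (MCM6) and 1.28-fold (MCM7), against 3.29-fold for MCM2.

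Both remaining ring subunits were low in 1 knockout each. MCM4 was at 1.57, 0.64, 1.42 and 1.16. Its level in Arp5 KO was -0.93 from WT, or 1.9-fold lower, and was below all 3 other cultures, the nearest being Arp8 OE at a distance of 0.51. Arp8 KO lay within the error of WT, and Arp8 OE was between them and Arp5 KO, at -0.41 from WT. MCM5 was at 5.49, 5.39, 4.61 and 5.29. Here Arp8 KO was the low culture, -0.88 from WT or 1.84-fold lower, and -0.68 from Arp8 OE, while WT, Arp5 KO and Arp8 OE lay within the error of their neighbours in the order. Compared directly, Arp8 KO stood 0.78 above Arp5 KO in MCM4 and 0.78 below it in MCM5, whereas MCM2 differed by only 0.14 between the knockouts.

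MCM8 and MCM10, which are not in the ring, were measured by 2 probes each. The mean MCM8 level was 1.38, 1.32, 1.0 and 0.86, and both probes gave this order. The MCM8 probe A_23_P68547 was at 2.08, 2.02, 1.65 and 1.51, and A_24_P305556 was at 0.68, 0.63, 0.35 and 0.21. MCM8 was thus at -0.06, -0.38 and -0.52 from WT, with WT and Arp5 KO within the error of each other and lowest in Arp8 OE, where MCM2 was near its WT level. The MCM10 mean was 1.09, 1.1, 0.83 and 0.75. Its probes did not move together, since in Arp8 KO 1 probe (A_23_P161474) was at -0.48 from WT and the other (A_24_P412088) at -0.05, and in Arp5 KO they were at -0.1 and 0.12. In Arp8 OE both MCM10 probes were below WT, at -0.45 and -0.24.

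**Figure D2:**
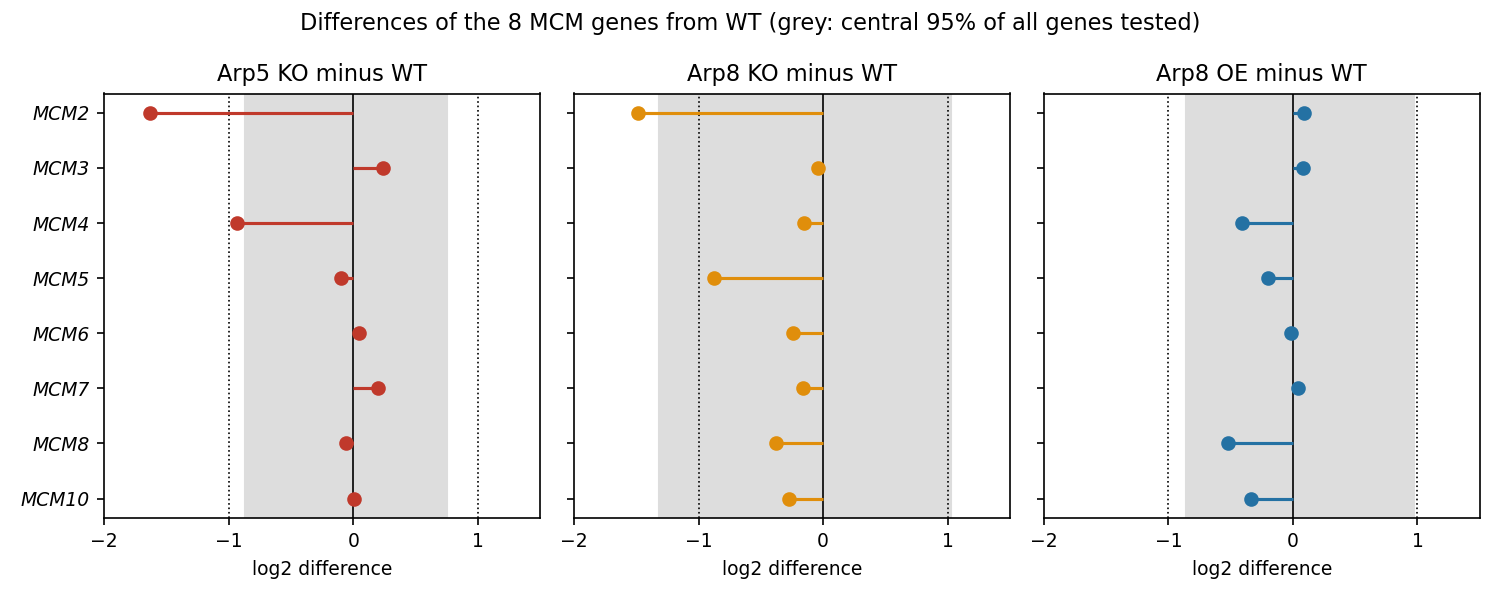
Log2 difference of each of the 8 MCM genes from WT (x axis), with a panel for each other culture, the grey band holding the central 95% of all 12568 genes tested and dotted lines at a 2-fold difference. MCM2 lies beyond the band in both knockouts, MCM4 at -0.93 lies just past its lower edge of -0.87 in Arp5 KO, and all other MCM genes lie within it.

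By a 2-fold threshold, 1 of the 8 MCM genes was lower in Arp5 KO, against 2.01% of all genes, and 1 of 8 was lower in Arp8 KO, against 4.32%. Both times it was MCM2. In Arp8 OE 0 of 8 were lower, where 1.99% of all genes were. A 2-fold higher level was found for 0 of 8 in the 3 comparisons, against 1.5%, 2.65% and 2.28% of all genes. With Arp8 OE as the reference MCM2 was again the 1 gene past 2-fold lower, against 2.64% of all genes in Arp5 KO and 3.65% in Arp8 KO. A 4-fold lower level was found for 0 of 8 in either knockout, where 0.541% and 1.03% of all genes were that low.

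A smaller threshold of 0.32 on the log2 scale, which exceeds the error of 0.2, brought in more members. In Arp5 KO 2 genes were lower by it (MCM2 and MCM4), against 10.4% of all genes. In Arp8 KO there were 3 (MCM2, MCM5 and MCM8), against 20.9%, and in Arp8 OE 3 (MCM4, MCM8 and MCM10), against 15.2%. By the same threshold 0 of 8 were higher in the 3 comparisons, where 10.2%, 18.9% and 14.3% of all genes were. The comparisons share the WT array, and with 8 genes chosen on these values such counts only describe the family.

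The family as a whole shifted little beside MCM2. The median of the 8 genes was -0.03, -0.25 and -0.11, beside 0.00, 0.00 and -0.01 over all genes tested. In Arp8 KO 8 of 8 lay below 0, in Arp5 KO 4 of 8 and in Arp8 OE 5 of 8, where 49.9%, 49.8% and 51.6% of all genes did. The count for Arp8 KO depends on the reference array, because against Arp8 OE 5 of 8 lay below 0 there, with MCM4 at 0.27, MCM8 at 0.14 and MCM10 at 0.08. Within the ring, the MCM2 difference minus the median difference of the 5 other subunits was -1.68 in Arp5 KO, a gap of 3.2-fold, and -1.33 for Arp8 KO, a gap of 2.52-fold. It was 0.12 for Arp8 OE. The MCM2 signal thus shifted against the median of the rest of the ring in each knockout, as measured by its 1 probe. Its gap to the next-lowest subunit was smaller, at -0.7 in Arp5 KO (MCM4) and -0.61 in Arp8 KO (MCM5).

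Because MCM2 had 1 probe at 1 spot, the surface around it was examined. The spot had 6 adjacent spots and 59 within 60 pixels, and 0 of these were bright or dim by over 2-fold on 1 array alone, counting as bright only a spot well above background on that array and as dim only a spot well above background on the next array up. Of the 27 nearby spots well above background on all arrays, 0 were past 2-fold lower in either knockout, and their median differences were 0.01 in Arp5 KO and 0.08 in Arp8 KO. Dimmer spots were left out of that count, and some were past 2-fold lower. These were 1 adjacent spot in Arp5 KO (-1.082, with -0.457 in Arp8 KO) and spots further off in Arp8 KO (-1.431, -1.546 and -1.07). The raw median intensity of the MCM2 spot, before background subtraction and detrending, was 12688, 4213, 3829 and 11353, over a local background between 32 and 39. The low knockout values were thus present in the scanned image itself. Beside the other members, MCM6 had 1 adjacent spot bright on Arp8 KO alone and 1 dim on WT alone, and MCM5 had 1 adjacent spot dim on Arp8 KO alone, and their part in those values was not tested.

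**Figure D3:**
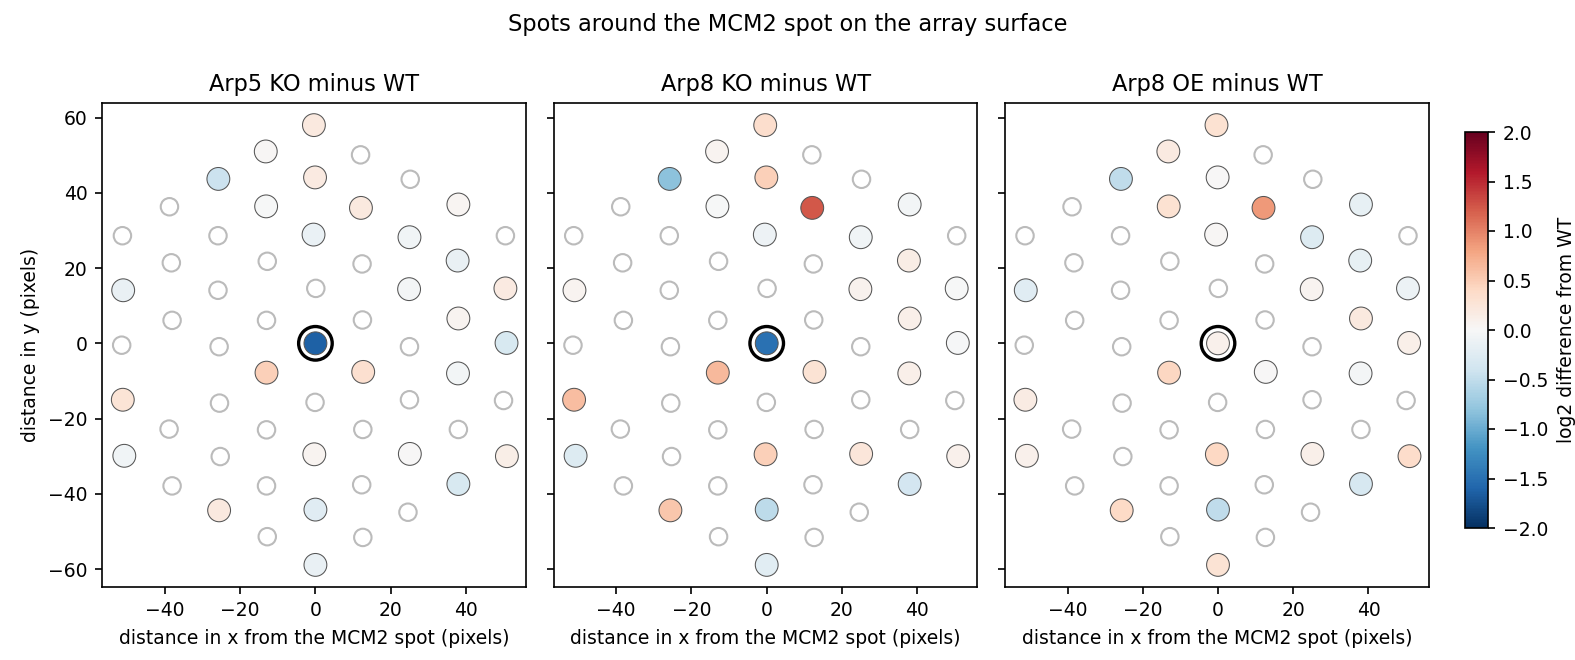
Position of the 59 spots within 60 pixels of the MCM2 spot (black ring at the centre; axes in pixels), coloured by log2 difference from WT where a spot was well above background on all 4 arrays and drawn as an open circle otherwise. MCM2 is dark blue (lower) in both knockouts, and none of the 27 measured spots around it is past 2-fold lower in these comparisons.

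A probe that stands alone has no second measure of its gene. In the 4049 genes with at least 2 probes well above background on all arrays, 60 probes were past 2-fold lower in Arp5 KO, and for 29 of them (48.3%) another probe of the gene was also past 2-fold lower. In Arp8 KO this held for 138 of 241 (57.3%). No second MCM2 probe was there to make this check.

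Genes with a bright signal were also counted, which does not rank them by abundance, since signals of different probes are not comparable as transcript levels. There were 713 genes with a WT level of at least 4 on the log2 scale, a limit chosen after the MCM2 level was known. Of these, 1 was past 2-fold lower in Arp5 KO (0.14%) and 15 were so in Arp8 KO (2.1%). MCM2 was the 1 gene low in both. With the limit at 3 it was joined by VPREB3, a part of the pre-B receptor pathway, and with the limit at 2 by ISG20 and OCIAD2 as well, out of 2406 genes. Over all levels, 203 genes (1.62%) were past 2-fold lower in both knockouts, and 21 of these (10.3%), MCM2 among them, were closer than 0.32 to WT in Arp8 OE. Most genes tested were that close, since 15.2% of all were lower and 14.3% higher in Arp8 OE by 0.32 or more. Such closeness was thus rarer among the 203 genes, whose differences all share the WT array.

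The genes with the pattern most like MCM2 were sought among 11160 genes, by the Euclidean distance between log2 levels centred on their own mean over the 4 arrays. The closest was SEPTIN1, a cytoskeletal GTPase, at a distance of 0.141 and with differences from WT of -1.51, -1.57 and 0.13. IL3RA, the alpha chain of the interleukin-3 receptor, followed at 0.295, and CREB5, a bZIP transcription factor, at 0.307. IL3RA was at -1.26, -1.46 and 0.18, and its other probe, which was not well above background on every array, gave -1.38, -1.48 and 0.1. CREB5 was at -1.45, -1.72 and 0.19, and its other probe gave -1.35, -1.95 and -0.0. Both genes thus had like values on 2 probes, and 1 of the 6 spots adjacent to the closer CREB5 probe was bright on 1 array alone.

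NEIL1, a DNA glycosylase of base excision repair, came next, at a distance of 0.32 and with 0.07 for Arp8 OE and -1.31 for Arp8 KO, and 2 of its 6 adjacent spots were bright on 1 array alone. VEGFA, the vascular endothelial growth factor, was the last of the 5, at 0.363, with differences of -1.20, -1.51 and 0.31 on that probe. The remaining VEGFA probes did not share it, and 1 of them gave -0.08, -0.49 and 1.17. None of the other MCM genes was near MCM2 by this measure. The closest of them, MCM5 and MCM4, ranked 1652 and 1726 of 11160, and MCM8 ranked 7461.

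**Figure D4:**
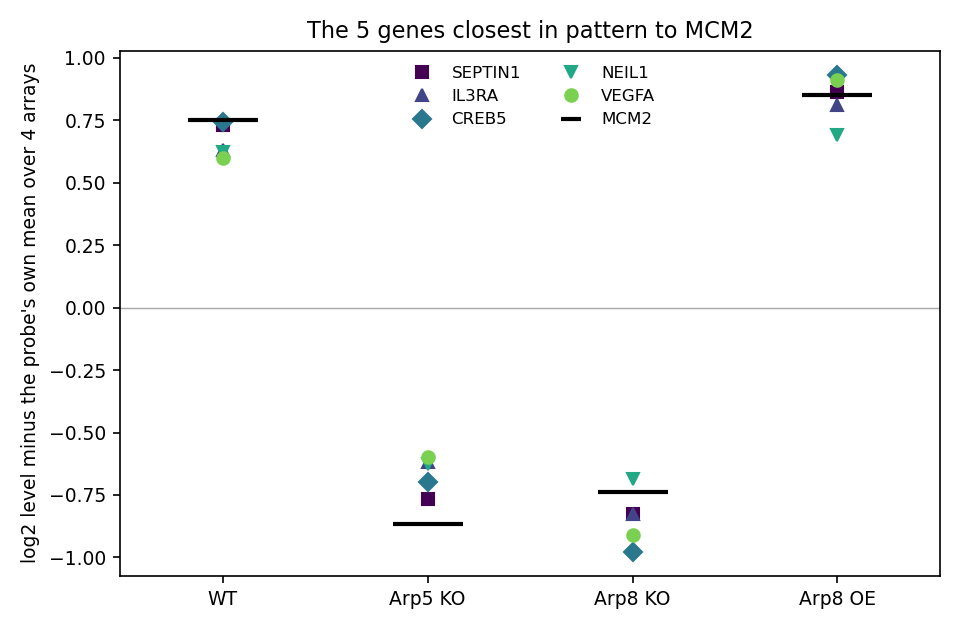
Log2 level in each of the 4 cultures after subtracting the probe's own mean over the arrays (y axis) for the 5 genes closest in pattern to MCM2, with MCM2 as a black bar. All 5 lie above their mean in WT and Arp8 OE and below it in both knockouts, which is the pattern they were picked for.

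The partners of the ring were compared next, from 6 lists of replication and cell cycle genes. Of these genes, 9 recognise origins and load the ring, and 14 complete or activate the helicase. In Arp5 KO none of these 9 and none of these 14 was past 0.32 in either direction, where 10.4% of all genes were lower and 10.2% higher. Their medians were 0.02 and 0.04. CDC45 was at 0.09, GINS1 at 0.03, CDC6 at 0.07 and CDT1, which delivers the ring to origins, at 0.13. MCM2 and MCM4 were thus low in Arp5 KO while the partner transcripts, like most genes tested, lay near their WT level.

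In Arp8 KO the partners were lower against WT. For the loading genes the median was -0.26, with 4 of 9 lower by 0.32 or more, against 20.9% of all genes, among them ORC3 at -0.69 and CDT1 at -0.51. For the helicase partners it was -0.37, with 8 of 14 lower by it, among them the GINS subunits GINS1 at -0.77, GINS2 at -0.72 and GINS4 at -0.57, and CDC45 at -0.35. None of these reached a 2-fold difference from WT. The size of the median shift depends on the reference array. Against Arp8 OE the medians in Arp8 KO were -0.09 for the loading genes and -0.16 for the helicase partners. Then 2 of 9 and 4 of 14 were lower by 0.32 or more, beside 2700 of all 12568 genes. GINS1 and CDT1 were further down than against WT, at -1.1 and -0.99. GINS1 was then the 1 of 14 past 2-fold lower, against 3.65% of all genes. ORC3, GINS2, GINS4 and CDC45 were less far down than against WT, at -0.47, -0.6, -0.22 and -0.24. In Arp8 OE the medians were -0.22 and -0.14, with CDC6 at -0.59 and CDT1 at 0.48.

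The relatives of the ring proteins and the proteins that bind them had a median of -0.07 in Arp8 KO. MCMBP, which binds the ring subunits and takes the place of MCM2 in part of the complexes, was at 0.22, 0.19 and 0.11. HROB, which recruits the MCM8 and MCM9 helicase, was at 0.04, -0.40 and 0.02. The 8 tested genes of this list had medians of 0.02, -0.07 and -0.15, with 0, 3 and 1 lower by 0.32 or more, against 10.4%, 20.9% and 15.2% of all genes, and 0 higher. The lowest in Arp8 KO was ASF1A, a histone chaperone, at -0.57, but its 2 probes gave -1.03 and -0.11.

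**Figure D5:**
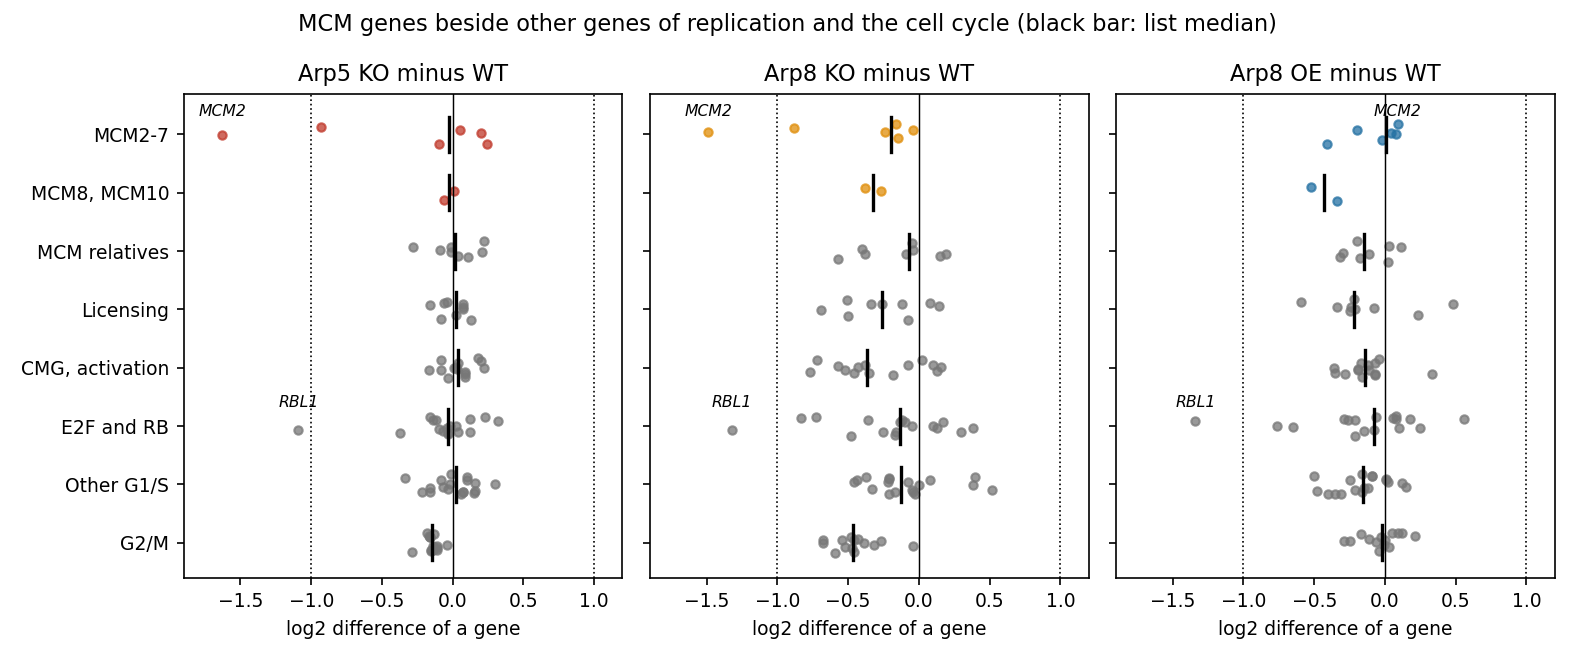
Log2 difference from WT (x axis) of every tested gene of the MCM family (coloured) and of 6 lists of replication and cell cycle genes (grey), 1 point per gene, spread at random in height within a list, with black bars at list medians and dotted lines at 2-fold. MCM2 (-1.63 and -1.49) and RBL1 (-1.09 and -1.32) are past 2-fold lower in both knockouts, and the helicase partners and G2/M genes centre below 0 in Arp8 KO (medians -0.37 and -0.47).

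Other genes of the G1/S program did not share the MCM2 level either. The 18 transcripts of this list had medians of 0.03, -0.12 and -0.15, with 1, 4 and 4 lower by 0.32 or more, against the same 10.4%, 20.9% and 15.2% of all genes. In Arp8 KO 3 of them were higher by it (CCNE1 at 0.38, CCNE2 at 0.52 and UNG at 0.4), where 18.9% of all genes were. PCNA, the sliding clamp of the replication fork, was at 0.1, -0.0 and -0.15. The 17 E2F and RB genes had medians of -0.03, -0.13 and -0.08, and E2F1 was at 0.23, -0.12 and 0.1. Past 2-fold lower there was RBL1, the RB relative p107, at -1.09, -1.32 and -1.34, but its 2 probes disagreed, with 1 at -2.06, -2.31 and -2.13 and the other at -0.12, -0.33 and -0.55.

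Genes with an E2F form in their window were also compared as 1 set, a comparison chosen after the MCM values were seen. Of 261 such genes tested, 5 (1.92%) were past 2-fold lower in Arp5 KO and 5 (1.92%) in Arp8 KO, with MCM2 counted in each. Over the 10113 genes with any window the shares were 1.91% and 4.24%. The medians of the 261 genes were 0.01 and -0.10. MCM3, MCM6 and MCM7, each with a window that held the first form as that of MCM2 did, stayed closer than 0.32 to WT in all 3 comparisons. MCM8, whose window held the second form, was at -0.06, -0.38 and -0.52. MCM4 and MCM5, for which no window was used, are not part of this contrast. The part of E2F in these values was not tested.

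The 14 G2/M transcripts were followed as a gauge of cycling. All 14 were below WT in both knockouts, where 49.8% (Arp5 KO) and 49.9% (Arp8 KO) of all genes were. In Arp5 KO their median was -0.14, with 0 lower by 0.32 or more, beside 10.4% of all genes. In Arp8 KO their median was -0.47, with 12 lower by 0.32 or more, beside 20.9% of all genes. Against Arp8 OE in place of WT, their median in Arp8 KO was -0.45, with 10 of 14 lower by 0.32 or more, beside 2700 of all 12568 genes. In Arp8 OE the median was -0.02. CENPE and TTK, both of which act at kinetochores in mitosis, were at -0.68 in Arp8 KO, and MKI67, the proliferation marker Ki-67, was at -0.04. These genes were low in the culture in which 8 of 8 MCM genes lay below WT and 5 of 8 below Arp8 OE, and their part in the MCM values was not tested. The MCM2 differences of -1.63 and -1.49 lay below the lowest G2/M gene in either knockout.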

How the data were processed

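Total RNA of 4 Nalm-6 cultures was labelled with Cy3 and hybridised to single-colour Agilent arrays. The authors deposited linear spot intensity values from Agilent Feature Extraction 10.10.1.1, which had subtracted the background and a surface trend within each array, with no scaling between arrays. Their series matrix, deposited as intensity too, equals these values times 1 factor per array (1.99 to 2.29) and served as an alternative. Groups came from the genotype labels.

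Each signal was divided by the 75th percentile of its array and taken as log2. Outlier spots were left out and replicate spots averaged. Probes with 50% or more of their spots well above background passed on that array, and those passing on 1 or more of the 4 arrays were tested. Dimmer values were raised to the lowest well-above value of the array, and probes of a gene were averaged. Of 41000 probes, 27204 (66.4%) matched 1 gene symbol by transcript identifier in RefSeq tables of GRCh38.p14. The headers name another build, hg19, so only promoter windows carry coordinates. An adjacent spot lay within 20 pixels and was bright if it was well above background on 1 array and exceeded each other array there by over 2-fold.

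There was 1 array per group, so no test was made. The number of arrays limits the precision. The MCM genes, the gene lists and the comparisons were chosen with earlier results of these data known. Named were the MCM genes, both targeted genes, members of the 6 replication and cell cycle lists past 2-fold, and the 5 genes closest to the MCM2 probe among probes with 1 symbol that were well above background and unsaturated on all arrays. Other list and marker genes were named as examples after their values were seen. The scripts were tested on simulated data. Python 3.11.15, pandas 2.3.3, numpy 2.4.6, R 4.3.3 and limma 3.58.1 were used. The 13 alternatives were median scaling, quantile normalization, cyclic loess, normexp, the series matrix, other probe filters and summaries, other thresholds and Arp8 OE as reference.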

Additional observations from a re-analysis of the deposited data

How the results depend on the processing

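The 1 array per culture, the 1 MCM2 probe and the conflicting heme labels limit every comparison. No paired analysis was possible because each group had 1 array. For the same reason no array could be left out. Of 393 values recomputed under 13 alternatives, 349 stayed within the spread between spots, or within 1.5 times for a count, 44 did not, and 0 past 2-fold changed sign. Only MCM2 in the knockouts was past 2-fold. The series matrix, the other background filters and keeping outlier spots could move no MCM value. The matrix differs by 1 factor per array, and every MCM probe was well above background with no outlier. Their values are among the 349. Across the settings other than the reference array and the threshold, MCM2 ranged from -1.64 to -1.6 (Arp5 KO), from -1.57 to -1.47 (Arp8 KO) and from 0.0 to 0.1 (Arp8 OE). In these settings the small differences of MCM10 in Arp5 KO (-0.1 to 0.04), MCM3 in Arp8 OE (-0.03 to 0.08) and MCM7 in Arp8 OE (-0.08 to 0.04) changed sign.

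With Arp8 OE as the reference, MCM2 was at -1.72 (Arp5 KO) and -1.58 (Arp8 KO), the median of the 8 genes at 0.13 and -0.16, and the median of MCM3 to MCM7 in Arp5 KO at 0.10, and MCM4, MCM8 and MCM10 in Arp8 KO turned to 0.27, 0.14 and 0.08, as did MCM5 and MCM8 in Arp5 KO to 0.1 and 0.46. With the brightest probe of each gene, the median of the 8 came to -0.08 for Arp5 KO and -0.33 for Arp8 KO. Normexp gave MCM2 as -1.57 (Arp8 KO) and 0.0 (Arp8 OE), and cyclic loess gave a median of MCM3 to MCM7 of -0.21 in Arp8 KO. In Arp8 OE the medians of the 8 and of MCM3 to MCM7 were -0.16 and -0.08 with quantile normalization, and -0.20 and -0.08 without probes beside a bright spot, where MCM6 drops out. The cause was not tested for the other moves. The count of lower MCM genes with a threshold of 0.32 was 2 (Arp5 KO), 3 (Arp8 KO) and 3 (Arp8 OE). With a 4-fold threshold it was 0 in each knockout. Normexp took the median signal of a spot. The use of gene names from the arrays' own annotation was not run, because the files used hold no such column.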
